A study of Mus musculus with 9 samples.

Results

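The comparison described here set 3 libraries of mouse brain tumor stem cells (BTSC) edited at Gpd1 with the guide sgRNA1 against 3 libraries of control BTSC. Its members were the genes with a mean normalized read count of at least 10 over these 6 libraries, and 15793 of the 21899 genes in the deposited table met that rule. Poly(A) RNA was sequenced, and the whole series holds 9 libraries, of which the other 3 carry a second guide, sgRNA2. The series asks, in its title, about GPD1 as a target in the stem cells of glioblastoma, a malignant brain tumor of glial character.

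The cells of both groups are cultured tumor stem cells from mouse brain. In the sgRNA1 KO group, Gpd1 was targeted with Cas9 and sgRNA1 carried on the lentiCRISPv2 vector, which was brought in with lipofectamine, and puromycin removed cells that had not taken it up. The edited cells were then plated thinly, and colonies that each arose from 1 cell were picked and expanded, so a KO library may represent a single clone. Whether the control cells carried a vector, were selected or came from picked colonies is not stated in the labels. Nothing in the labels says that the libraries of a group came from separate cultures, so the p-values measure only the spread between these samples, which may be technical for the controls. No age, sex or strain is given.

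Gpd1 is the cytosolic glycerol-3-phosphate dehydrogenase, which makes glycerol-3-phosphate from a glycolytic intermediate and NADH. Glycerol-3-phosphate is the backbone on which acyltransferases build phospholipids and triglycerides. Gpd1l is a closely related cytosolic enzyme, and Gpd2 is the mitochondrial enzyme that runs the reaction the other way and passes the electrons to the respiratory chain, which completes the glycerol phosphate shuttle. Stem cells of brain tumors can divide or stay quiescent, and they can take on features of astrocytes, oligodendrocyte precursors or neurons.

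The guide and the places in annotated mouse transcripts that come closest to it are shown because they tie the edited gene to its paralog. The guide matched Gpd1 exactly, in the coding part of exon 1 of 8, at chr15:99717620-99717639 on the plus strand of GRCm38 (mm10). With up to 3 mismatches and an NGG motif (the PAM that Cas9 needs, in capitals), the transcripts of 3 other genes held a match: the paralog Gpd1l, Adh5 and Adgrg2. The search covered transcripts alone, since no genome sequence was used here.
sgRNA1: aaagtctgcattgtcggctcNGG
Gpd1: aaagtctgcattgtcggctcTGG
Gpd1l: aaagtgtgcatcgtgggctcGGG
Adh5: aaagtctgccttctcggctgTGG
Adgrg2: aaattctgcattgttggctgGGG
Counted from 1 at the guide's 5′ end, the Gpd1l site differs by C6G, T12C and C15G and lies in the coding part of exon 1 of 8 at chr9:114933680-114933699 on the minus strand. The Adh5 site differs by A10C, G13C and C20G and lies in the coding part of exon 5 of 9 at chr3:138451056-138451075 on the plus strand. The Adgrg2 match, with G4T, C15T and C20G, spans an exon junction and so is not a continuous stretch of the genome. A match is a description of letters, and editing at these places was not tested.

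Normalized read counts per library summed to between 39974295 and 42975283 over the 6 libraries, and values below are always given in the order of replicates 1, 2 and 3. One edited library stood apart. Across the genes tested, sgRNA1 KO replicate 3 correlated with the controls at r = 0.962 to 0.969, whereas replicates 1 and 2 did so at 0.909 to 0.926. Among all 9 libraries, replicate 3 was most like sgRNA2 KO replicate 1 (r = 0.991). A level at least 2-fold away from the control mean was found for 34.5% of genes in replicate 1, 32.6% in replicate 2 and 14.5% in replicate 3, against 0.2% to 0.3% in the single controls. The median SD over genes on the log2 scale was 0.086 among the controls and 0.322 among the sgRNA1 KO libraries, or 0.157 between KO replicates 1 and 2 alone. Results are therefore given with and without replicate 3.

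Gpd1 (ENSMUSG00000023019, chromosome 15, 99717515 to 99725005) had 25106, 26566 and 25836 in control and 3299, 1347 and 21351 in sgRNA1 KO. Replicates 1 and 2 stood at 12.8% and 5.21% of the control mean, and replicate 3 stood at 82.6%, below all controls but close to them. The groups did not overlap, but limma gave an adjusted p of 0.07 for the log2 fold change of -2.50 (SE 0.93), which missed the threshold. The exact two-sided permutation test gave p = 0.1, the smallest that 20 splits of 6 libraries allow. With all 9 libraries in the fit the adjusted p was 0.0391, and with a variance weight per group it was 0.0179. Without replicate 3, Gpd1 fell by 3.61 on the log2 scale (SE 0.33, adjusted p = 0.000119). An RNA level does not show whether the coding sequence is intact, and the edited alleles were not read here.

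Gpd1l, the paralog with the near match, had counts of 5337, 4983 and 5017 in control and 6606, 7538 and 6754 in sgRNA1 KO, so that every KO library lay above every control (log2 fold change 0.44, SE 0.09, adjusted p = 0.0142, 4 of 6 fits). It also passed without replicate 3, but missed the threshold without control replicate 2 or 3 (adjusted p = 0.076 and 0.0738). Gpd2, the mitochondrial enzyme, had 9913, 10089 and 9954 counts in control against 5560, 5328 and 10079 in sgRNA1 KO. Replicates 1 and 2 were low and replicate 3 was at the control level, and the test was missed (log2 fold change -0.58, SE 0.25, adjusted p = 0.0986). Without replicate 3, Gpd2 fell, with a log2 fold change of -0.88 (SE 0.05, adjusted p = 2.40e-05). For Adh5, an alcohol and formaldehyde dehydrogenase, the values were 7418, 7570 and 7042 in control and 6687, 6692 and 7122 in sgRNA1 KO, and it did not pass (log2 fold change -0.10, SE 0.08, adjusted p = 0.316). Adgrg2, an adhesion receptor, had at most 4 counts in each of these libraries and was not tested.

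Of the 15793 genes tested by limma at an adjusted p under 0.05, 6722 (42.6%) passed, 3120 of them higher in sgRNA1 KO (19.8%) and 3602 lower (22.8%). The change was at least 2-fold for 1573 genes that rose and 1644 that fell, and at least 8-fold for 137 and 135. All 3 KO libraries lay above all 3 controls for 4470 genes (28.3%) and below them for 5112 (32.4%). The median log2 fold change over all genes tested was -0.02. The count of genes that passed depended strongly on single libraries: it was 2735, 810 and 816 without control replicates 1, 2 and 3, and 3792, 3791 and 10818 without sgRNA1 KO replicates 1, 2 and 3. The 10818 (68.5%) found with KO replicates 1 and 2 alone comprised 5146 that rose and 5672 that fell, and they included 6679 of the 6722 in the same direction. A set of 755 genes, 370 higher and 385 lower, passed in all 6 of the fits that left 1 library out.

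Among the 3120 genes that rose, the median log2 ratio to the control mean was 1.19, 1.10 and 0.69 in the 3 KO libraries, and among the 3602 that fell it was -1.11, -1.04 and -0.54. Since these genes were chosen by the same values, the medians are a description. Replicate 3 was the KO library nearest to the controls for 2337 of the genes that rose (74.9%) and 2864 of those that fell (79.5%). It was the farthest for 280 (9.0%) and 290 (8.1%). Genes of this last kind include the collagen chain Col6a1, the annexin A2 partner S100a10 and the G protein subunit Gng2, whose values follow.

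A gene that passed in fewer than all 6 of those fits carries their number beside its test. The genes with the largest falls included components of the matrix, calcium-binding S100 proteins and members of the interferon-inducible Ifi200 and Schlafen families. Col6a1, a chain of type VI collagen, had counts of 365, 395 and 437 in control and 23, 8 and 1 in sgRNA1 KO (log2 fold change -5.72, SE 0.85, adjusted p = 0.00773). S100a10 had 531, 584 and 519 counts in control against 18, 50 and 0 in sgRNA1 KO (log2 fold change -5.78, SE 1.36, adjusted p = 0.0205, 3 of 6 fits). S100a6, another member of its family, had 208, 237 and 235 in control and 10, 8 and 3 in sgRNA1 KO (log2 fold change -4.95, SE 0.40, adjusted p = 0.00317). In all of these, replicate 3 was the lowest of the 6 libraries. Ifi202b, an interferon-inducible DNA-binding protein, had counts of 106, 173 and 152 in control and 1, 3 and 1 in sgRNA1 KO (log2 fold change -5.81, SE 0.38, adjusted p = 0.00193). Ifi203 from the same gene family had 76, 80 and 70 counts in control against 4, 2 and 0 in sgRNA1 KO (log2 fold change -4.95, SE 0.59, adjusted p = 0.00577), and it shares exon sequence with Mndal on its own strand. Reads of the closely related Ifi200 genes may have been split between copies, so these values are uncertain. Slfn8 of the Schlafen family had 173, 188 and 188 in control and 6, 0 and 13 in sgRNA1 KO (log2 fold change -5.32, SE 0.93, adjusted p = 0.0104, 4 of 6 fits).

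Other genes among the 15 largest falls encode enzymes, secreted factors and regulators of G protein signalling. Aldh1a3, a retinaldehyde dehydrogenase used as a marker of mesenchymal glioma stem cells, had counts of 744, 989 and 967 in control and 14, 13 and 60 in sgRNA1 KO (log2 fold change -5.26, SE 0.58, adjusted p = 0.00474). The secreted phosphoprotein osteopontin, Spp1, had 196, 297 and 254 counts in control against 4, 5 and 22 in sgRNA1 KO (log2 fold change -4.80, SE 0.60, adjusted p = 0.00607). The chemokine Ccl2 had 286, 591 and 437 in control and 0, 18 and 106 in sgRNA1 KO (log2 fold change -5.05, SE 1.59, adjusted p = 0.0441, 2 of 6 fits). Ccl2 varied widely in KO, from 0 counts to 106. Gng2, a G protein gamma subunit, had counts of 1350, 1546 and 1300 in control and 79, 106 and 17 in sgRNA1 KO (log2 fold change -4.70, SE 0.65, adjusted p = 0.00681). Rgs4, which speeds up the shut-off of G protein signals, had 358, 443 and 415 counts in control against 12, 22 and 16 in sgRNA1 KO (log2 fold change -4.56, SE 0.26, adjusted p = 0.00152). Rgs4 was low to a like degree in all KO libraries. The list also held the procollagen protease Adamts14 (log2 fold change -5.57), the membrane protein Itpripl2 (-5.58), the synaptotagmin Syt13 (-5.48) and the secreted protein Fam19a2 (-5.23). Without a control library, S100a10, Adamts14, Slfn8 and Ccl2 missed the threshold in at least 1 fit, with adjusted p-values of at most 0.129, and Ccl2 missed it without KO replicate 2 as well.

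The genes with the largest rises were at 22 counts or fewer in the controls, apart from Agt and S100b. Actc1, the cardiac actin, had 21, 3 and 9 in control and 6159, 2894 and 379 in sgRNA1 KO (log2 fold change 7.63, SE 1.12, adjusted p = 0.00758). Its levels in KO ran over a wide range, and replicate 3 was the lowest. The muscle form of a cytochrome c oxidase subunit, Cox8b, had counts of 2, 3 and 0 in control and 151, 133 and 45 in sgRNA1 KO (log2 fold change 5.42, SE 0.69, adjusted p = 0.00608). The ribonuclease Rnase1 had 2, 0 and 0 counts in control against 303, 200 and 38 in sgRNA1 KO, a ratio of summed counts of 270.0 (95% Clopper-Pearson interval 74.5 to 2240.0, which covers counting error alone). Helt, a transcription factor of GABAergic neurons in the midbrain, was at 0 in all controls and at 43, 149 and 3 in sgRNA1 KO, which is at least 21.7-fold higher against a floor of 3 counts per library. Replicate 3 was itself at that floor.

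Several of these rises involve neural and glial proteins. S100b, a calcium-binding protein of astrocytes, had 412, 201 and 230 in control and 10047, 9477 and 4578 in sgRNA1 KO (log2 fold change 4.82, SE 0.39, adjusted p = 0.00317). Agt, angiotensinogen, which astrocytes make in the brain, had counts of 92, 64 and 72 in control and 4416, 4472 and 965 in sgRNA1 KO (log2 fold change 5.13, SE 0.61, adjusted p = 0.00568). Both were raised in each KO library, less in replicate 3. Gsg1l, a subunit that slows AMPA receptors, had 4, 1 and 0 counts in control against 196, 246 and 146 in sgRNA1 KO (log2 fold change 6.48, SE 0.60, adjusted p = 0.00356). The GABA-B receptor subunit Gabbr2 had 15, 14 and 12 in control and 454, 2680 and 75 in sgRNA1 KO (log2 fold change 4.95, SE 1.19, adjusted p = 0.0216, 2 of 6 fits), with replicate 2 far above the other KO libraries. Cdh1, E-cadherin, had counts of 1, 1 and 3 in control and 373, 179 and 8 in sgRNA1 KO (log2 fold change 5.07, SE 1.35, adjusted p = 0.0281, 1 of 6 fits). Its replicate 3 was only just above the controls. Other genes of this set were the transcription factor Osr2 (log2 fold change 5.93), the AMPA receptor-associated Syndig1l (5.93), the growth factors Bmp3 (5.32) and Pdgfd (5.04) and the vesicle protein Rph3a. With 1 library left out, Helt and Cdh1 passed without KO replicate 3 but in no other fit (adjusted p up to 0.0965), and Helt fell under the mean of 10 without KO replicate 2.

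**Figure D1:**
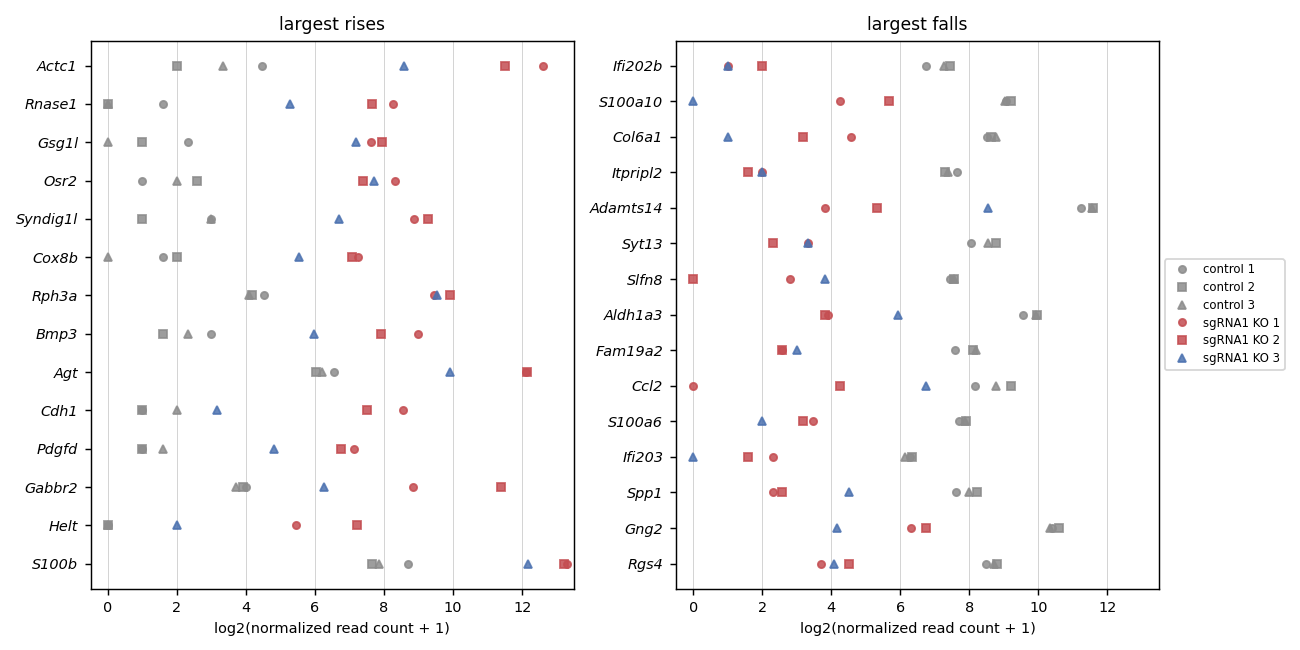
Levels of the genes with the largest rises (left) and largest falls (right) that are reported here, in each library, as log2(normalized read count + 1) on the horizontal axis, with grey marks for controls, red for sgRNA1 KO replicates 1 and 2 and blue for replicate 3. Only genes without overlap of the groups were eligible, so no KO mark overlaps the controls of its gene. Replicate 3 is the lowest of all 6 libraries for S100a10, Col6a1, S100a6, Ifi203 and Gng2.

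The genes with the smallest p among those changed at least 2-fold were mostly others. A small p needs a spread that is small beside the change, so any likeness of their KO libraries follows partly from the choice. Fn1, fibronectin, the matrix glycoprotein that integrins bind, had 10738, 11159 and 11182 counts in control against 1677, 1752 and 1909 in sgRNA1 KO, the smallest adjusted p of the set (log2 fold change -2.63, SE 0.09, adjusted p = 0.000664). Its means were 11026 ± 250 in control and 1779 ± 118 in sgRNA1 KO (SD, n = 3 each). Met, the receptor of hepatocyte growth factor, had 276, 378 and 411 in control and 20, 18 and 14 in sgRNA1 KO (log2 fold change -4.27, SE 0.24, adjusted p = 0.00152). Cdh22, a cadherin of brain, had counts of 6541, 6036 and 6166 in control and 2221, 2159 and 2306 in sgRNA1 KO (log2 fold change -1.49, SE 0.08, adjusted p = 0.00152). Moxd1, a monooxygenase-like protein, had 541, 465 and 473 counts in control against 48, 42 and 42 in sgRNA1 KO (log2 fold change -3.46, SE 0.16, adjusted p = 0.00151). In these 4 genes, replicate 3 was about as low as replicates 1 and 2. Ssc5d, a secreted scavenger receptor protein, fell with a log2 fold change of -3.53 (SE 0.19). Fn1 shares exon sequence with Apol7d on the opposite strand, and the sources used here do not say that counting used strand.

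Among the rises with the smallest p, Rph3a, a Rab3 effector of synaptic vesicles, had 22, 17 and 16 in control and 700, 953 and 733 in sgRNA1 KO (log2 fold change 5.36, SE 0.21, adjusted p = 0.0011). Gstm1 had counts of 3052, 2850 and 2903 in control and 9233, 8596 and 9124 in sgRNA1 KO (log2 fold change 1.61, SE 0.08, adjusted p = 0.00151). Its relative Gstm7 had 661, 671 and 637 counts in control against 1927, 1754 and 1791 in sgRNA1 KO (log2 fold change 1.47, SE 0.10, adjusted p = 0.00194). Both are glutathione S-transferases that conjugate electrophiles, and their sequences are alike enough that reads may be shared. Sepp1, the selenium carrier selenoprotein P, had 2525, 2217 and 2153 in control and 36990, 33599 and 22623 in sgRNA1 KO (log2 fold change 3.73, SE 0.19, adjusted p = 0.00152). It overlaps Ccdc152 on the opposite strand. Ptgds, the brain prostaglandin D synthase, had counts of 523, 455 and 426 in control and 3137, 2508 and 2273 in sgRNA1 KO (log2 fold change 2.49, SE 0.16, adjusted p = 0.00186). Clec3b, tetranectin, reached its highest level in replicate 3, with 60, 47 and 51 counts in control against 659, 648 and 962 in sgRNA1 KO (log2 fold change 3.80, SE 0.22, adjusted p = 0.00152). Grin3a, an NMDA receptor subunit, had 905, 873 and 842 in control and 2394, 2306 and 2531 in sgRNA1 KO (log2 fold change 1.46, SE 0.09, adjusted p = 0.00186). The 16 genes of both directions with the smallest p passed in all 6 fits that left 1 library out.

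**Figure D2:**
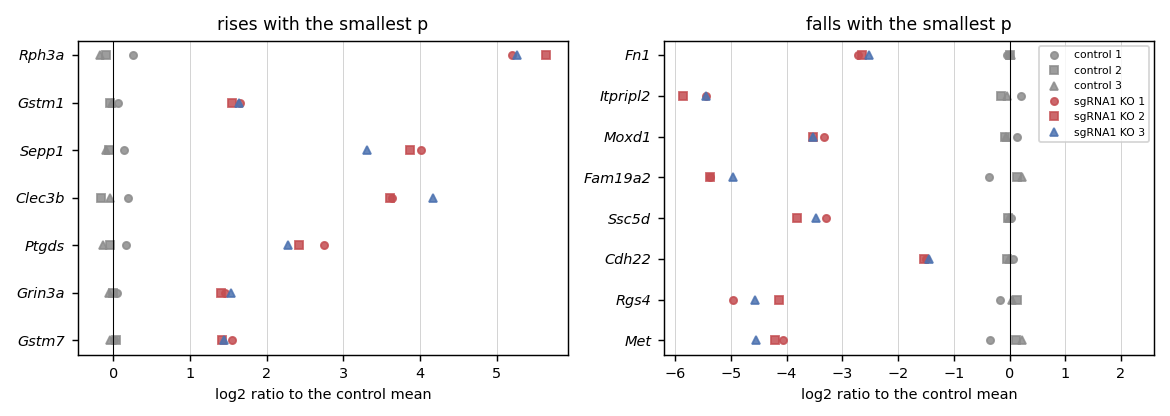
Log2 ratio of each library to the control mean for the rises (left) and falls (right) with the smallest p that are reported here, with grey marks for controls, red for sgRNA1 KO replicates 1 and 2 and blue for replicate 3. Replicate 3 sits with replicates 1 and 2 in Fn1, with 1909 counts against 1677 and 1752. It is lower than both in Sepp1 (22623 against 36990 and 33599) and higher in Clec3b (962 against 659 and 648). The genes were chosen by these same values.

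Gene lists of 38 pathways, cell types and complexes were counted against the shares of all genes, 19.8% higher and 22.8% lower. They held 826 different genes that were tested, of which 194 rose and 223 fell. The genes named from each list are up to 3 that passed in each direction with the largest change, unless said otherwise. With 1 library left out, the 417 became 200, 87 and 90 without control replicates 1, 2 and 3, and 256, 258 and 657 without KO replicates 1, 2 and 3. The shares of all genes differ in those fits too. Without KO replicate 3, 68.5% of all 15793 genes tested passed, 5146 higher and 5672 lower. In 5 lists the members that passed were all lower, and in 7 they were all higher. Some rest on few genes, with falls for 1 of 24 in cholesterol synthesis, 1 of 6 endothelial and 2 of 4 pericyte and fibroblast members. In the tricarboxylic acid cycle and malate-aspartate shuttle 4 of 26 rose, which is under the share of all genes.

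**Figure D3:**
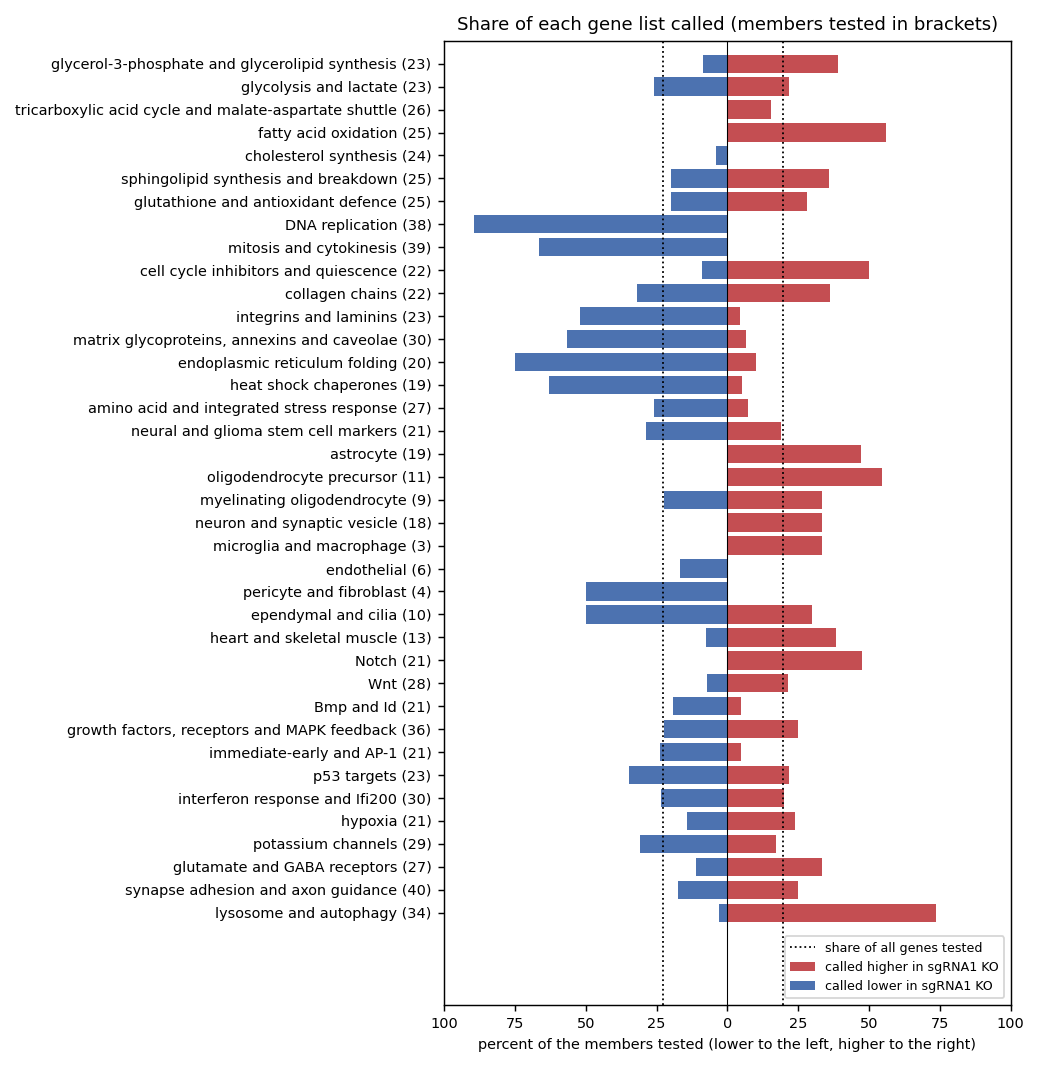
Percent of the tested members of each gene list that passed limma at an adjusted p under 0.05, lower to the left in blue and higher to the right in red, with the number tested in brackets and dotted lines at the shares of all genes tested (22.8% lower, 19.8% higher). DNA replication (34 of 38 lower), endoplasmic reticulum folding (15 of 20 lower) and lysosome and autophagy (25 of 34 higher) reach farthest.

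In the pathway that Gpd1 feeds, 9 of 23 tested genes rose and 2 fell, with a median log2 fold change of 0.37. Acyltransferases that add fatty acids to the glycerol backbone were among both. Agpat9, which catalyses the first acylation, had counts of 15, 18 and 15 in control and 68, 55 and 36 in sgRNA1 KO (log2 fold change 1.63, SE 0.30, adjusted p = 0.0114, 4 of 6 fits). Agpat1, which catalyses the next one, had 4026, 4192 and 4241 counts in control against 3136, 3082 and 3385 in sgRNA1 KO (log2 fold change -0.38, SE 0.08, adjusted p = 0.018, 3 of 6 fits). Lpin3, a phosphatidate phosphatase on the way to diacylglycerol, had 670, 970 and 894 in control and 105, 55 and 182 in sgRNA1 KO and fell in every KO library (log2 fold change -3.02, SE 0.43, adjusted p = 0.00729). On the breakdown side, Mgll, the lipase that releases glycerol and the last fatty acid, had counts of 5907, 4012 and 4368 in control and 20056, 14311 and 8690 in sgRNA1 KO (log2 fold change 1.53, SE 0.32, adjusted p = 0.0151, 3 of 6 fits). Plin3, a coat protein of lipid droplets, had 63, 45 and 45 counts in control against 267, 219 and 287 in sgRNA1 KO (log2 fold change 2.32, SE 0.22, adjusted p = 0.00361), and replicate 3 was the highest of all. Agpat9 and Mgll were lowest in replicate 3 among the KO libraries. For the glycerolipid list, 6, 1 and 1 rose and 1, 1 and 1 fell when control replicates 1, 2 and 3 were left out in turn. Without KO replicates 1, 2 and 3, 7, 6 and 14 rose and 2, 2 and 7 fell.

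**Figure D4:**
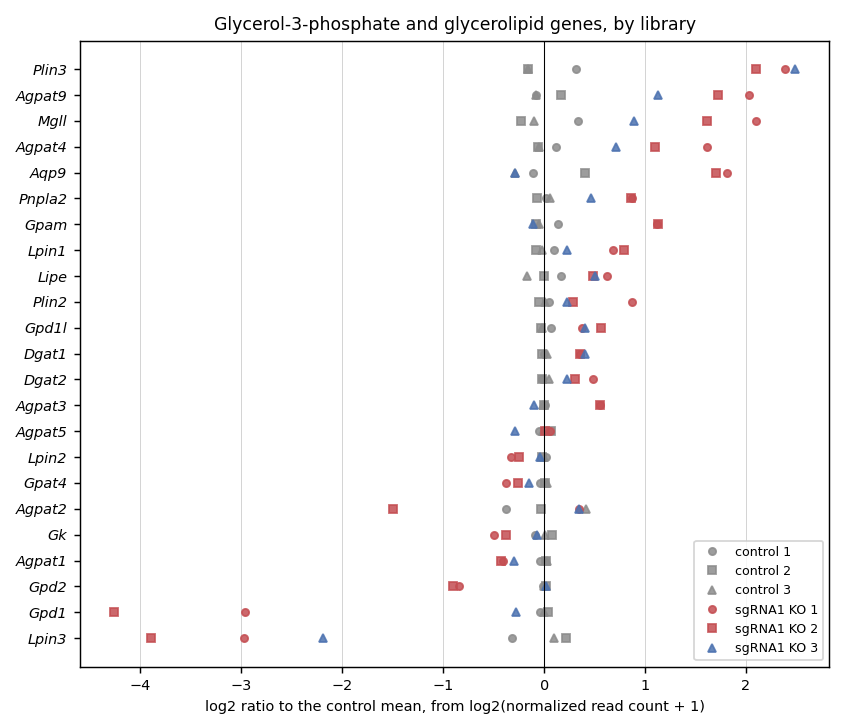
Log2 ratio of each library to the control mean for the 23 tested genes of glycerol-3-phosphate and glycerolipid synthesis, with grey marks for controls, red for sgRNA1 KO replicates 1 and 2 and blue for replicate 3. Gpd1 and Gpd2 are low in replicates 1 and 2 and near the controls in replicate 3, whereas Plin3 and Lpin3 differ in all 3.

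Glycolysis, which supplies the substrate of Gpd1, had 5 of 23 genes that rose and 6 that fell, both near the shares of all genes. Pfkp, the platelet form of phosphofructokinase, had 1911, 2520 and 2413 in control and 245, 202 and 298 in sgRNA1 KO (log2 fold change -3.20, SE 0.19, adjusted p = 0.00152). The muscle form Pfkm had counts of 5171, 4793 and 4872 in control and 10903, 9724 and 9327 in sgRNA1 KO (log2 fold change 1.01, SE 0.09, adjusted p = 0.00356). Hexokinase 2, Hk2, had 2235, 2727 and 2592 counts in control against 194, 378 and 1206 in sgRNA1 KO (log2 fold change -2.49, SE 0.62, adjusted p = 0.0237, 2 of 6 fits), with replicate 3 nearest to the controls. Ldhb, the lactate dehydrogenase subunit of oxidative tissue, had 3248, 2991 and 3037 in control and 10527, 9540 and 6923 in sgRNA1 KO (log2 fold change 1.52, SE 0.16, adjusted p = 0.00468). The aldolase of brain, Aldoc, had counts of 45081, 40410 and 40432 in control and 128303, 140165 and 68424 in sgRNA1 KO (log2 fold change 1.35, SE 0.27, adjusted p = 0.0142, 4 of 6 fits). The lactate and pyruvate transporter Slc16a1 had 5669, 6082 and 5777 counts in control against 2334, 2399 and 3910 in sgRNA1 KO (log2 fold change -1.06, SE 0.21, adjusted p = 0.0131, 4 of 6 fits). Pfkp, Pfkm and Ldhb passed whichever library was left out. In glycolysis and lactate, leaving out control replicates 1, 2 and 3 gave 5, 3 and 3 rises and 3, 2 and 2 falls. Leaving out KO replicates 1, 2 and 3 gave 5, 5 and 5 rises and 6, 5 and 14 falls.

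In the tricarboxylic acid cycle and malate-aspartate shuttle, 4 of 26 genes rose and 0 fell (limma, with 1 lower at an unadjusted p under 0.05). The rises did not exceed the share of all genes. Pcx, which makes oxaloacetate from pyruvate, had 2164, 1875 and 1839 in control and 3857, 5712 and 6701 in sgRNA1 KO (log2 fold change 1.44, SE 0.21, adjusted p = 0.00765), and here replicate 3 was the highest. Without replicate 3, 17 of the 26 fell and 4 rose, and no member fell in the other fits with a library left out. The median log2 ratio of the list was -0.27 and -0.34 in KO replicates 1 and 2 and 0.19 in replicate 3, so this library lay on the other side of the controls. For the cycle and shuttle, 3, 2 and 2 rose and 0, 0 and 0 fell when control replicates 1, 2 and 3 were left out in turn. With KO replicates 1, 2 and 3 left out, 3, 4 and 4 rose and 0, 0 and 17 fell.

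Of the fatty acid oxidation genes, 14 of 25 rose, 11 did not pass and 0 fell (limma, 0 lower at an unadjusted p under 0.05), with a median log2 fold change of 0.54. Acaa1a, a thiolase of peroxisomes, had counts of 1086, 978 and 972 in control and 2287, 2141 and 1770 in sgRNA1 KO (log2 fold change 1.02, SE 0.13, adjusted p = 0.00608). Eci2, which isomerises unsaturated intermediates, had 3384, 3112 and 3070 counts in control against 8011, 6970 and 4780 in sgRNA1 KO (log2 fold change 1.01, SE 0.19, adjusted p = 0.0126, 4 of 6 fits). Acox3, a peroxisomal oxidase, had 1049, 878 and 906 in control and 2116, 1927 and 1277 in sgRNA1 KO (log2 fold change 0.88, SE 0.21, adjusted p = 0.0206, 1 of 6 fits). In these 3 genes every KO library was above the controls and replicate 3 was the lowest of them. In fatty acid oxidation, leaving out control replicates 1, 2 and 3 gave 8, 3 and 3 rises and 0, 0 and 0 falls. The fits without KO replicates 1, 2 and 3 gave 10, 10 and 19 rises and 0, 0 and 1 falls.

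Cholesterol synthesis gave 0 genes higher and 1 lower of 24 in limma, or 0 and 2 at an unadjusted p under 0.05. The KO libraries did not move together: the list's median log2 ratio was -1.02 in replicate 1, -0.05 in replicate 2 and 0.07 in replicate 3. Without KO replicate 1, 4 members rose and 1 fell. Without KO replicate 3, 9 fell and 0 rose, the falls near the share of all genes in that fit (5672 of 15793). Without any of the other 4 libraries 0 passed. Among sphingolipid genes 9 of 25 rose and 5 fell, the falls near the share of all genes. The lysosomal galactosylceramidase Galc had counts of 3188, 3241 and 3119 in control and 6173, 6392 and 5051 in sgRNA1 KO (log2 fold change 0.88, SE 0.11, adjusted p = 0.00624). Sgms2, a sphingomyelin synthase, had 308, 332 and 341 counts in control against 98, 88 and 125 in sgRNA1 KO (log2 fold change -1.66, SE 0.18, adjusted p = 0.00486). For sphingolipid synthesis and breakdown, 5, 1 and 1 rose and 1, 1 and 1 fell when control replicates 1, 2 and 3 were left out in turn. When KO replicates 1, 2 and 3 were left out, 6, 6 and 11 rose and 4, 3 and 7 fell.

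In glutathione and antioxidant defence, 7 of 25 genes rose and 5 fell, the falls near the share of all genes. Gsta4, a transferase for products of lipid peroxidation, had 2316, 2111 and 2147 in control and 6032, 4945 and 4949 in sgRNA1 KO (log2 fold change 1.27, SE 0.11, adjusted p = 0.00339). Mgst3 had counts of 450, 397 and 381 in control and 1363, 1155 and 764 in sgRNA1 KO (log2 fold change 1.38, SE 0.23, adjusted p = 0.00952, 4 of 6 fits). Other enzymes of thiol redox were lower. Gsr, glutathione reductase, had 5432, 5840 and 5807 counts in control against 1590, 1743 and 4348 in sgRNA1 KO (log2 fold change -1.31, SE 0.38, adjusted p = 0.0342, 1 of 6 fits), with replicate 3 nearer the controls. Thioredoxin reductase, Txnrd1, had 15228, 16798 and 16772 in control and 6492, 6479 and 8955 in sgRNA1 KO (log2 fold change -1.17, SE 0.15, adjusted p = 0.00608). The peroxidase Gpx1 had counts of 5813, 6412 and 6009 in control and 3376, 2169 and 2358 in sgRNA1 KO (log2 fold change -1.23, SE 0.18, adjusted p = 0.00729). In glutathione and antioxidant defence, leaving out control replicates 1, 2 and 3 gave 5, 2 and 2 rises and 2, 2 and 2 falls. Rises numbered 5, 5 and 9 and falls 2, 2 and 12 without KO replicates 1, 2 and 3.

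Genes of DNA replication were lower almost throughout, with a median log2 fold change of -2.19. Of 38, 34 fell and 0 rose (limma, 0 higher at an unadjusted p under 0.05). All KO libraries lay below all controls for the whole 38, against 32.4% of all genes tested. Cdc6, which loads the replicative helicase at origins, had 2049, 2465 and 2399 counts in control against 75, 132 and 976 in sgRNA1 KO (log2 fold change -3.42, SE 0.90, adjusted p = 0.0268, 1 of 6 fits). Cdt1, its partner in that step, had 2215, 2671 and 2620 in control and 108, 180 and 1351 in sgRNA1 KO (log2 fold change -3.06, SE 0.89, adjusted p = 0.0353, 1 of 6 fits). Rrm2, a subunit of ribonucleotide reductase, had counts of 11417, 13070 and 13109 in control and 780, 1024 and 6775 in sgRNA1 KO (log2 fold change -2.83, SE 0.78, adjusted p = 0.031, 1 of 6 fits). Replicates 1 and 2 were far below the controls in all 3 genes and replicate 3 lay between. In bulk samples, fewer cells of a kind and less RNA per cell cannot be told apart. The list's median log2 ratio was -3.07, -2.88 and -0.60 in the 3 KO libraries. For DNA replication, 0, 0 and 0 rose and 2, 0 and 0 fell when control replicates 1, 2 and 3 were left out in turn. Without KO replicates 1, 2 and 3, 0, 0 and 0 rose and 4, 2 and 38 fell. With KO replicates 1 and 2 alone the whole list of 38 fell, and with a control left out almost none passed.

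Of the genes of mitosis and cytokinesis, 26 of 39 fell and 0 rose (limma, 0 higher at an unadjusted p under 0.05), with a median log2 fold change of -1.65. Aurkb, the kinase that corrects spindle attachments, had 4816, 5086 and 5080 counts in control against 624, 461 and 3640 in sgRNA1 KO (log2 fold change -2.30, SE 0.74, adjusted p = 0.0475, 1 of 6 fits). Plk4, which starts centriole duplication, had 3817, 4087 and 3897 in control and 592, 412 and 2506 in sgRNA1 KO (log2 fold change -2.21, SE 0.64, adjusted p = 0.0346, 1 of 6 fits). Kif23, a motor of the cytokinetic midzone, had counts of 4010, 4656 and 4685 in control and 925, 582 and 2236 in sgRNA1 KO (log2 fold change -2.06, SE 0.46, adjusted p = 0.0182, 2 of 6 fits). Replicate 3 was again nearest to the controls, with list medians of -2.03, -2.62 and -0.42, but here replicate 2 was the lowest. In mitosis and cytokinesis, leaving out control replicates 1, 2 and 3 gave 0, 0 and 0 rises and 0, 0 and 0 falls. Leaving out KO replicates 1, 2 and 3 gave 0, 0 and 0 rises and 0, 3 and 39 falls.

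Inhibitors of the cell cycle and genes of quiescence rose in 11 of 22 cases and fell in 2, with a median of 0.45. Cdkn1c, the inhibitor p57, had 7, 9 and 15 counts in control against 86, 72 and 43 in sgRNA1 KO (log2 fold change 2.59, SE 0.39, adjusted p = 0.00776, 5 of 6 fits). Mxd4, which antagonises Myc, had 2082, 1553 and 1679 in control and 13042, 10917 and 5061 in sgRNA1 KO (log2 fold change 2.35, SE 0.36, adjusted p = 0.0079). The antiproliferative factor Btg2 had counts of 3958, 2570 and 2844 in control and 21529, 16892 and 10417 in sgRNA1 KO (log2 fold change 2.34, SE 0.30, adjusted p = 0.00608). All KO libraries lay above all controls in these. The 2 members that fell act in cell cycle repression too: Rbl1, the pocket protein p107, had 3716, 3846 and 3800 counts in control against 964, 881 and 2966 in sgRNA1 KO (log2 fold change -1.48, SE 0.45, adjusted p = 0.0413, 1 of 6 fits). E2f4, its partner, had 2586, 2902 and 2956 in control and 1343, 1512 and 1878 in sgRNA1 KO (log2 fold change -0.85, SE 0.15, adjusted p = 0.0101, 4 of 6 fits). For these inhibitors, 8, 4 and 5 rose and 1, 0 and 0 fell when control replicates 1, 2 and 3 were left out in turn. With KO replicates 1, 2 and 3 left out, 9, 9 and 12 rose and 1, 1 and 6 fell.

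The promoters of 3 cell cycle genes named above are shown because these lists moved together and their promoters are known for E2F, CHR and CCAAT elements. The last 150 bases before the RefSeq start (GRCm38.p6) are given 5′ to 3′ along the gene, with motif matches on either strand in capitals.
Cdc6, chr11:98908001-98908150, plus strand: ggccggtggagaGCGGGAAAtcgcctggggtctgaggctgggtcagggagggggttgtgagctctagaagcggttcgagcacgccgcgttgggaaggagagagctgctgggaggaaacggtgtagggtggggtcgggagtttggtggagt
Rrm2, chr12:24708104-24708253, plus strand: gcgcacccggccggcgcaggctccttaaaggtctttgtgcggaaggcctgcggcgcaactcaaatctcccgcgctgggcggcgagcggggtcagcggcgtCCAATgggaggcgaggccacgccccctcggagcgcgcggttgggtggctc
Kif23, chr9:61946800-61946949, minus strand: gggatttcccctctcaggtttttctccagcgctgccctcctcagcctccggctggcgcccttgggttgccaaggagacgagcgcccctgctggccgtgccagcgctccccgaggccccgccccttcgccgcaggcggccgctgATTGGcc
In Cdc6 the capitals mark an E2F form and in Rrm2 and Kif23 a CCAAT box. Over 250 bases before the start, on both strands, the forms searched were TTTGGCGC, TTTCCCGC, TTTGCCGC and TTTCGCGC for E2F, TTTGAA and TTCGAA for CHR, and CCAAT, with matches to each motif counted independently of the others. Shares are of genes with a motif in at least 1 promoter, and some genes have several promoters. An E2F form was present for 33.3% of the DNA replication genes (30 of 38 matched by symbol). The share was 3.0% for mitosis and cytokinesis (33 of 39 matched) and 3.8% for the 10852 tested genes that were matched. A CHR form was present for 6 of the 30 DNA replication genes, for 36.4% of those of mitosis and for 14.3% of the tested genes. For CCAAT the shares were 60.0%, 78.8% and 40.2%. Among all 27025 genes with a RefSeq promoter the shares were 2.2% for E2F, 19.6% for CHR and 37.5% for CCAAT. These are counts of letters and not of bound sites. Cdt1 and Plk4, also named above, held no match to any of these motifs and are not printed. No entry was matched for Aurkb.

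Matrix genes fell in several classes but not throughout. Among matrix glycoproteins, annexins and caveolar proteins, 17 of 30 fell and 2 rose, with a median of -1.11, and replicate 3 was as low as the others (-1.33, -1.01 and -1.22). The falls were led by S100a10, S100a6 and Spp1, whose values are given above. Timp3, an inhibitor of matrix proteases, rose, with counts of 4767, 3593 and 3824 in control and 10013, 17621 and 6588 in sgRNA1 KO (log2 fold change 1.38, SE 0.35, adjusted p = 0.0243, 2 of 6 fits). The protease inhibitor Serpine2 had 73357, 71825 and 72002 counts in control against 94291, 89592 and 90594 in sgRNA1 KO (log2 fold change 0.34, SE 0.08, adjusted p = 0.022, 1 of 6 fits). In this matrix list, leaving out control replicates 1, 2 and 3 gave 0, 0 and 0 rises and 11, 7 and 7 falls. The fits without KO replicates 1, 2 and 3 gave 1, 1 and 5 rises and 14, 15 and 19 falls.

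Of integrins and laminins, 12 of 23 fell and 1 rose. Lama3, a chain of the laminin of epithelial basement membranes, had 214, 284 and 223 in control and 35, 24 and 15 in sgRNA1 KO (log2 fold change -3.30, SE 0.33, adjusted p = 0.00412). Itga7, a laminin-binding integrin, had counts of 3504, 3985 and 3982 in control and 1497, 2016 and 379 in sgRNA1 KO (log2 fold change -1.87, SE 0.60, adjusted p = 0.046, 2 of 6 fits), and replicate 3 was the lowest for both. Lamb2, a laminin chain of vessels and synapses, was the member that rose, with 2160, 2058 and 2128 counts in control against 5725, 4350 and 3505 in sgRNA1 KO (log2 fold change 1.07, SE 0.18, adjusted p = 0.00967, 4 of 6 fits). For integrins and laminins, 1, 0 and 0 rose and 8, 3 and 4 fell when control replicates 1, 2 and 3 were left out in turn. When KO replicates 1, 2 and 3 were left out, 2, 1 and 3 rose and 8, 9 and 16 fell. Collagen chains split, with 8 of 22 higher and 7 lower. Col12a1, a fibril-associated chain, had 329, 339 and 389 in control and 45, 37 and 59 in sgRNA1 KO (log2 fold change -2.90, SE 0.22, adjusted p = 0.00282). Col18a1, the precursor of endostatin, had counts of 1036, 1256 and 1298 in control and 279, 75 and 49 in sgRNA1 KO (log2 fold change -3.55, SE 0.61, adjusted p = 0.0101, 4 of 6 fits). Among the rises, Col20a1 had 27, 19 and 28 counts in control against 162, 200 and 147 in sgRNA1 KO (log2 fold change 2.74, SE 0.24, adjusted p = 0.00339). Col28a1 had 14, 13 and 10 in control and 227, 215 and 60 in sgRNA1 KO (log2 fold change 3.45, SE 0.54, adjusted p = 0.00842, 4 of 6 fits). In collagen chains, leaving out control replicates 1, 2 and 3 gave 6, 2 and 2 rises and 5, 3 and 3 falls. Rises numbered 6, 7 and 11 and falls 7, 7 and 8 without KO replicates 1, 2 and 3.

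Folding factors of the endoplasmic reticulum were lower in 15 of 20 cases and higher in 2, with a median of -0.78 and list medians of -0.98, -0.78 and -0.63 in the KO libraries. Hspa5, the chaperone BiP, had counts of 36528, 41628 and 40129 in control and 15059, 18737 and 19544 in sgRNA1 KO (log2 fold change -1.16, SE 0.13, adjusted p = 0.00469). The disulfide isomerase Pdia6 had 16388, 17404 and 16879 counts in control against 5659, 6724 and 9227 in sgRNA1 KO (log2 fold change -1.26, SE 0.18, adjusted p = 0.00732). Creld2, a gene of the unfolded protein response, had 2686, 3102 and 2893 in control and 991, 1085 and 1464 in sgRNA1 KO (log2 fold change -1.31, SE 0.16, adjusted p = 0.00608). In all 3 the KO libraries lay well below the controls, replicate 3 included, and they passed whichever library was left out. Atf6, a sensor of that response, rose, with counts of 3421, 3443 and 3324 in control and 5416, 4898 and 4231 in sgRNA1 KO (log2 fold change 0.51, SE 0.11, adjusted p = 0.0173, 2 of 6 fits). The co-chaperone Dnajb9 rose too, with 1083, 1090 and 1071 counts in control against 1933, 1751 and 1253 in sgRNA1 KO (log2 fold change 0.58, SE 0.17, adjusted p = 0.038, 1 of 6 fits). For endoplasmic reticulum folding, 0, 0 and 0 rose and 15, 7 and 8 fell when control replicates 1, 2 and 3 were left out in turn. Without KO replicates 1, 2 and 3, 1, 0 and 4 rose and 15, 15 and 16 fell.

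Heat shock chaperones of cytosol and mitochondria fell in 12 of 19 cases and rose in 1. Hsp90aa1 had 7794, 9025 and 7796 in control and 2101, 2110 and 4143 in sgRNA1 KO (log2 fold change -1.63, SE 0.27, adjusted p = 0.00964, 4 of 6 fits). The mitochondrial chaperonin Hspd1 had counts of 24910, 28899 and 27667 in control and 5125, 5861 and 21838 in sgRNA1 KO (log2 fold change -1.64, SE 0.54, adjusted p = 0.0491, 1 of 6 fits), and there replicate 3 lay near the controls. In heat shock chaperones, leaving out control replicates 1, 2 and 3 gave 0, 0 and 0 rises and 7, 2 and 2 falls. Leaving out KO replicates 1, 2 and 3 gave 1, 0 and 2 rises and 8, 6 and 14 falls. In the amino acid and integrated stress response, 7 of 27 fell, near the share of all genes, and 2 rose. Slc7a1, a transporter of cationic amino acids, had 5281, 6703 and 6469 counts in control against 357, 681 and 2969 in sgRNA1 KO (log2 fold change -2.77, SE 0.73, adjusted p = 0.0269, 1 of 6 fits). Mthfd2, a mitochondrial folate enzyme, had 2818, 3670 and 3658 in control and 223, 339 and 2292 in sgRNA1 KO (log2 fold change -2.59, SE 0.83, adjusted p = 0.0467, 1 of 6 fits). Ddit4, an inhibitor of mTORC1, rose, with counts of 2947, 1956 and 2044 in control and 8076, 5976 and 6402 in sgRNA1 KO (log2 fold change 1.57, SE 0.20, adjusted p = 0.00608). For this stress response, 1, 1 and 1 rose and 1, 0 and 0 fell when control replicates 1, 2 and 3 were left out in turn. With KO replicates 1, 2 and 3 left out, 1, 2 and 4 rose and 1, 0 and 18 fell.

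Genes of lysosome and autophagy rose in 25 of 34 cases and fell in 1, with a median of 0.81 and list medians of 0.96, 0.93 and 0.45. Ctsf, a cysteine protease of lysosomes, had 266, 254 and 280 counts in control against 2376, 1361 and 647 in sgRNA1 KO (log2 fold change 2.26, SE 0.44, adjusted p = 0.0134, 4 of 6 fits). Ctsl, another, had 2668, 2691 and 2586 in control and 9404, 10940 and 3771 in sgRNA1 KO (log2 fold change 1.46, SE 0.39, adjusted p = 0.0279, 1 of 6 fits). Wipi1, which binds nascent autophagosomes, had counts of 713, 563 and 583 in control and 3102, 3051 and 946 in sgRNA1 KO (log2 fold change 1.75, SE 0.47, adjusted p = 0.0281, 1 of 6 fits). Each KO library exceeded each control, and replicate 3 was the lowest KO library in all 3. Ctsh was the member that fell, with 522, 437 and 491 counts in control against 288, 68 and 31 in sgRNA1 KO (log2 fold change -2.49, SE 0.75, adjusted p = 0.0395, 2 of 6 fits). In lysosome and autophagy, leaving out control replicates 1, 2 and 3 gave 12, 6 and 6 rises and 0, 0 and 0 falls. The fits without KO replicates 1, 2 and 3 gave 13, 13 and 28 rises and 1, 0 and 3 falls.

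**Figure D5:**
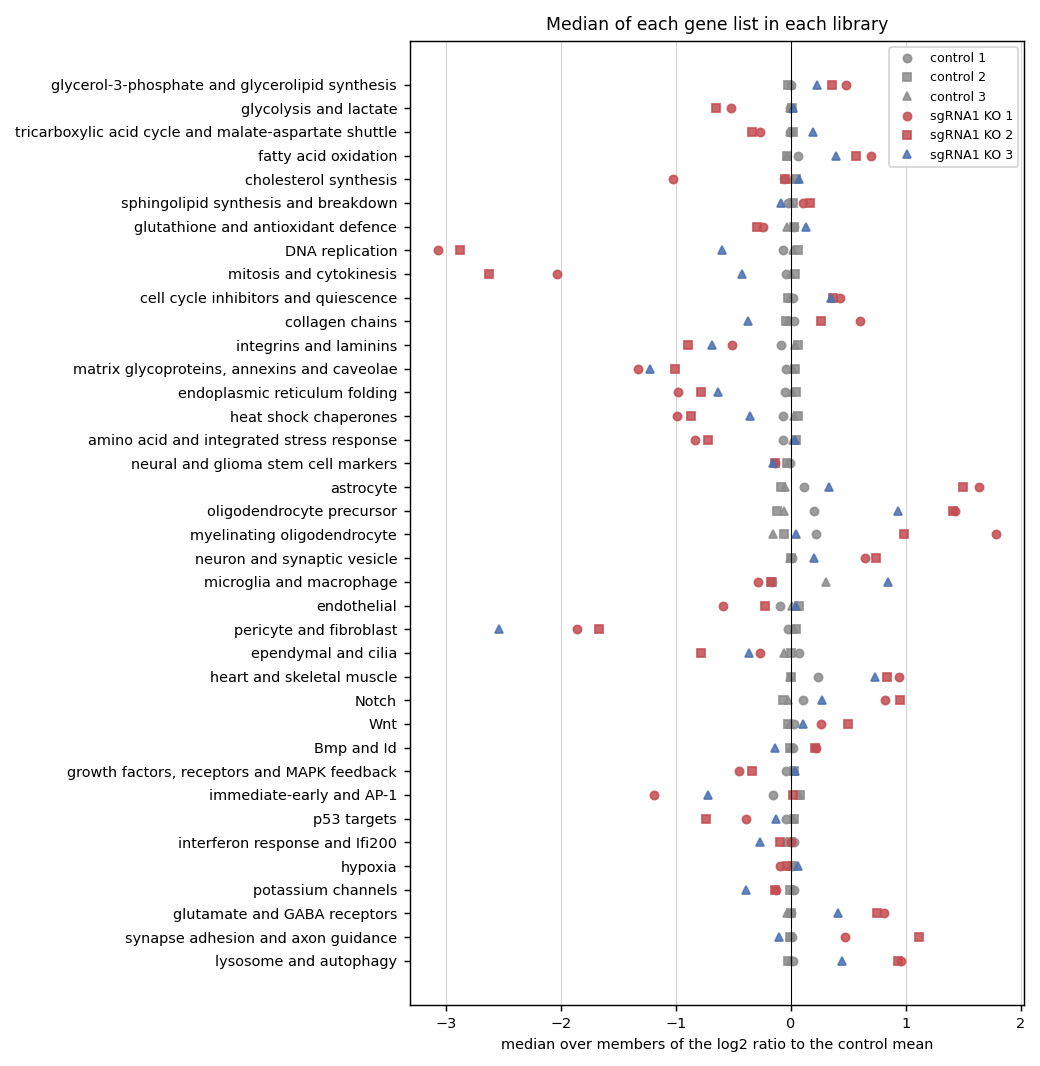
Median over the tested members of each gene list of the log2 ratio to the control mean, in each library, with grey marks for controls, red for sgRNA1 KO replicates 1 and 2 and blue for replicate 3. Replicate 3 is nearer the controls for DNA replication (-0.60 against -3.07 and -2.88) and level with the others for matrix glycoproteins, annexins and caveolae (-1.22 against -1.33 and -1.01).

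The labelled cell type was checked against markers of neural and glioma stem cells. All libraries held Sox2, Nes, Vim and Olig2 RNA, the lowest being Sox2 at 7105 counts in control replicate 2. Of 21 markers tested, with a median of -0.11, 4 rose, near the share of all genes, and 6 fell, Vim among them. Sox2, a transcription factor of stem cells, had 8756, 7105 and 7252 in control and 16454, 15102 and 11565 in sgRNA1 KO (log2 fold change 0.89, SE 0.16, adjusted p = 0.0111, 4 of 6 fits). Nes, the intermediate filament nestin, had counts of 37297, 46053 and 44266 in control and 8451, 15096 and 24740 in sgRNA1 KO (log2 fold change -1.53, SE 0.37, adjusted p = 0.0219, 2 of 6 fits). Cd44, the hyaluronan receptor, had 5528, 5948 and 6061 counts in control against 2033, 2409 and 1788 in sgRNA1 KO (log2 fold change -1.50, SE 0.13, adjusted p = 0.00321). Egfr, the receptor of EGF, had 20115, 19168 and 19326 in control and 32821, 31254 and 29298 in sgRNA1 KO (log2 fold change 0.67, SE 0.08, adjusted p = 0.00608). The group thus holds members that moved in opposite directions. Prom1 stood at 3 to 31 counts, Fut4 at 1 to 34 and L1cam at 3 to 10. For neural and glioma stem cell markers, 4, 1 and 1 rose and 2, 1 and 1 fell when control replicates 1, 2 and 3 were left out in turn. When KO replicates 1, 2 and 3 were left out, 4, 4 and 8 rose and 4, 3 and 9 fell.

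Markers of astrocytes were higher: 9 of 19 rose and 0 fell (limma, 0 lower at an unadjusted p under 0.05), with a median of 1.29 and list medians of 1.64, 1.50 and 0.33. Apoe, the lipid carrier that astrocytes secrete, had counts of 11072, 6613 and 7134 in control and 201715, 197380 and 34551 in sgRNA1 KO (log2 fold change 3.79, SE 0.70, adjusted p = 0.0117, 4 of 6 fits). Glutamine synthetase, Glul, had 11475, 10438 and 10704 counts in control against 54399, 62846 and 40398 in sgRNA1 KO (log2 fold change 2.25, SE 0.17, adjusted p = 0.00282). The glutamate transporter Slc1a2 had 3821, 2122 and 2352 in control and 23291, 25627 and 9666 in sgRNA1 KO (log2 fold change 2.75, SE 0.42, adjusted p = 0.00801). S100b is given above. The glial filament Gfap did not pass, with counts of 4827, 3348 and 3480 in control and 16039, 23509 and 373 in sgRNA1 KO, so replicate 3 was below the controls where the others were above. Aqp4, the water channel of astrocyte endfeet, did not pass either, with 1517, 670 and 742 counts in control against 24776, 8628 and 1141 in sgRNA1 KO. Aldh1l1 was high in replicate 1 alone, with 9644, 8383 and 8568 in control and 35433, 2191 and 3027 in sgRNA1 KO. In the astrocyte list, leaving out control replicates 1, 2 and 3 gave 9, 5 and 5 rises and 0, 0 and 0 falls. Rises numbered 9, 9 and 17 and falls 1, 0 and 0 without KO replicates 1, 2 and 3.

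Oligodendrocyte precursor markers rose in 6 of 11 cases and fell in 0 (limma, 0 lower at an unadjusted p under 0.05). Pdgfra, the receptor that drives these precursors, had counts of 613, 420 and 436 in control and 4251, 5154 and 921 in sgRNA1 KO (log2 fold change 2.49, SE 0.64, adjusted p = 0.026, 1 of 6 fits). Gpr17, a receptor of precursors on the way to maturity, had 453, 181 and 255 counts in control against 10109, 5553 and 912 in sgRNA1 KO (log2 fold change 3.75, SE 0.89, adjusted p = 0.0207, 1 of 6 fits). Bcan, the proteoglycan brevican, had 14323, 13152 and 13618 in control and 46169, 60469 and 28480 in sgRNA1 KO (log2 fold change 1.65, SE 0.26, adjusted p = 0.00878, 4 of 6 fits). Olig2 did not pass, with counts of 36225, 38291 and 38238 in control and 26003, 30955 and 38063 in sgRNA1 KO. For the precursor markers, 4, 2 and 2 rose and 0, 0 and 0 fell when control replicates 1, 2 and 3 were left out in turn. Without KO replicates 1, 2 and 3, 4, 4 and 8 rose and 0, 0 and 1 fell. Among myelin genes, Cnp, a phosphodiesterase of myelin, had 5341, 4074 and 4388 counts in control against 20149, 14935 and 9618 in sgRNA1 KO (log2 fold change 1.64, SE 0.27, adjusted p = 0.00952, 4 of 6 fits). Cldn11 fell, with 184, 107 and 120 in control and 44, 40 and 17 in sgRNA1 KO (log2 fold change -2.06, SE 0.42, adjusted p = 0.0144, 3 of 6 fits). Mbp, Mog and Mag, which define myelinating cells, stood at 14 counts or fewer in every library. In the myelin list, leaving out control replicates 1, 2 and 3 gave 1, 0 and 0 rises and 0, 0 and 0 falls. Leaving out KO replicates 1, 2 and 3 gave 1, 1 and 6 rises and 1, 1 and 2 falls.

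Of neuron and synaptic vesicle genes, 6 of 18 rose and 0 fell (limma, 0 lower at an unadjusted p under 0.05). Map2, a dendritic microtubule protein, had counts of 43613, 42431 and 43085 in control and 112682, 123669 and 58921 in sgRNA1 KO (log2 fold change 1.12, SE 0.28, adjusted p = 0.0234, 1 of 6 fits). Syn2, a synapsin, had 1890, 1383 and 1585 counts in control against 9888, 6564 and 4346 in sgRNA1 KO (log2 fold change 2.03, SE 0.30, adjusted p = 0.00773). Syp, synaptophysin of the vesicle membrane, had 302, 297 and 285 in control and 380, 432 and 397 in sgRNA1 KO and rose. Of the markers that define neurons, some were high in replicates 1 and 2 alone and did not pass. Tubb3, the tubulin of young neurons, had counts of 344, 212 and 262 in control and 1369, 1851 and 119 in sgRNA1 KO. Doublecortin, Dcx, had 6, 5 and 4 counts in control against 110, 159 and 2 in sgRNA1 KO. Rbfox3, the neuronal nuclear antigen NeuN, had 69, 82 and 67 in control and 19, 42 and 158 in sgRNA1 KO and was highest in replicate 3. Snap25, Slc17a7 and Gad2 stood at 10 counts or fewer in each library. For the neuron list, 4, 2 and 2 rose and 0, 0 and 0 fell when control replicates 1, 2 and 3 were left out in turn. With KO replicates 1, 2 and 3 left out, 5, 4 and 10 rose and 0, 1 and 2 fell. Of the ependymal and cilia list, 3 of 10 rose and 5 fell, among the latter the master regulator Foxj1, with counts of 4241, 3933 and 3870 in control and 2755, 1413 and 2607 in sgRNA1 KO. In the ependymal list, leaving out control replicates 1, 2 and 3 gave 1, 0 and 0 rises and 1, 1 and 1 falls. The fits without KO replicates 1, 2 and 3 gave 1, 1 and 4 rises and 3, 5 and 5 falls.

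Markers of other cell types that a brain culture could hold were also measured, and their part in the other changes was not tested. Of 14 microglial and macrophage markers, 7 were found in the table, and the summed counts of the 6 reported here were 93, 89 and 117 in control and 85, 77 and 81 in sgRNA1 KO. Ptprc, which defines leukocytes, was at 2, 1 and 1 in control and at 0 in each KO library. Of 12 endothelial markers, 9 were found, with sums of 726, 757 and 733 against 246, 294 and 399, most of it in control from Flt1, which fell, with 449, 456 and 445 counts in control against 53, 22 and 55 in sgRNA1 KO (log2 fold change -3.46, SE 0.36, adjusted p = 0.0045). Pecam1 stood at 5 to 13 counts. Of 12 pericyte and fibroblast markers, 7 were found, with sums of 2411, 2509 and 2344 against 436, 410 and 218. Acta2, the smooth muscle actin, made up most of these, with 2202, 2290 and 2117 in control and 363, 241 and 138 in sgRNA1 KO (log2 fold change -3.26, SE 0.34, adjusted p = 0.00426). Pdgfrb was at 4 counts or fewer. Of 26 heart and skeletal muscle genes, 22 were found, with sums of 409, 351 and 376 against 6909, 3581 and 860, and Actc1 makes up most of the sum in KO replicates 1 and 2. The myogenic regulators Myod1 and Myog stood at 0 to 5 counts.

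Notch genes rose in 10 of 21 cases and fell in 0 (limma, 0 lower at an unadjusted p under 0.05), with a median of 0.66. Dll3, a ligand that acts on the cell that makes it, had counts of 320, 182 and 207 in control and 5119, 5818 and 1062 in sgRNA1 KO (log2 fold change 3.78, SE 0.66, adjusted p = 0.0105, 4 of 6 fits). The target genes Hes5 and Hey2 had 1289, 450 and 657 counts in control against 5275, 4532 and 2309 in sgRNA1 KO (log2 fold change 2.39, SE 0.46, adjusted p = 0.013, 4 of 6 fits) and 62, 30 and 44 in control and 725, 879 and 86 in sgRNA1 KO (log2 fold change 3.10, SE 0.89, adjusted p = 0.0346, 1 of 6 fits). Replicate 3 was the lowest KO library in each, and Hey2 came close to the controls there. For Notch genes, 8, 3 and 3 rose and 0, 0 and 0 fell when control replicates 1, 2 and 3 were left out in turn. When KO replicates 1, 2 and 3 were left out, 6, 7 and 14 rose and 0, 0 and 2 fell. Wnt genes rose in 6 of 28 cases, near the share of all genes, and fell in 2. The receptor Fzd9 had counts of 1315, 1017 and 953 in control and 3489, 3261 and 2877 in sgRNA1 KO (log2 fold change 1.56, SE 0.15, adjusted p = 0.00399). The nuclear factor Tcf7 had 372, 527 and 556 counts in control against 30, 70 and 116 in sgRNA1 KO (log2 fold change -2.91, SE 0.49, adjusted p = 0.00956, 4 of 6 fits). In Wnt genes, leaving out control replicates 1, 2 and 3 gave 2, 2 and 2 rises and 2, 0 and 0 falls. Rises numbered 4, 4 and 14 and falls 2, 2 and 5 without KO replicates 1, 2 and 3.

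In the Bmp and Id list, 1 of 21 rose and 4 fell, the falls near the share of all genes. Id3, an inhibitor of bHLH factors and a Bmp target, had 5049, 4828 and 4894 in control and 2566, 2981 and 3971 in sgRNA1 KO (log2 fold change -0.66, SE 0.17, adjusted p = 0.0242, 1 of 6 fits). Without replicate 3, 11 rose and 7 fell, the falls near the share of all genes in that fit (5672 of 15793). With any other library left out at most 1 passed in either direction. Of growth factors, receptors and feedback genes, 9 of 36 rose and 8 fell, both near the shares of all genes. Erbb4, a receptor of neuregulins, had counts of 1343, 1118 and 1131 in control and 12348, 14959 and 2313 in sgRNA1 KO (log2 fold change 2.66, SE 0.69, adjusted p = 0.0259, 1 of 6 fits). Lif, a cytokine that maintains stem cells, had 304, 409 and 435 counts in control against 20, 46 and 120 in sgRNA1 KO (log2 fold change -2.94, SE 0.61, adjusted p = 0.0151, 4 of 6 fits). Igfbp3, which binds insulin-like growth factors, had 88297, 113890 and 109048 in control and 11244, 14241 and 36317 in sgRNA1 KO (log2 fold change -2.52, SE 0.43, adjusted p = 0.00971, 4 of 6 fits). For the growth factor list, 4, 3 and 3 rose and 5, 1 and 1 fell when control replicates 1, 2 and 3 were left out in turn. Without KO replicates 1, 2 and 3, 5, 6 and 12 rose and 6, 6 and 19 fell.

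Immediate-early and AP-1 genes fell in 5 of 21 cases, near the share of all genes, and rose in 1. Ier3 had counts of 184, 297 and 280 in control and 19, 10 and 6 in sgRNA1 KO (log2 fold change -4.43, SE 0.43, adjusted p = 0.00381). Egr1 had 3880, 4359 and 4426 counts in control against 614, 1456 and 1041 in sgRNA1 KO (log2 fold change -2.11, SE 0.30, adjusted p = 0.00734). Junb had 555, 623 and 612 in control and 91, 226 and 121 in sgRNA1 KO (log2 fold change -2.13, SE 0.33, adjusted p = 0.00844, 4 of 6 fits). These are transcripts that growth factor signals induce within minutes to hours. Jund rose, with counts of 720, 562 and 627 in control and 1340, 1669 and 1113 in sgRNA1 KO (log2 fold change 1.10, SE 0.18, adjusted p = 0.00953, 4 of 6 fits). In immediate-early and AP-1 genes, leaving out control replicates 1, 2 and 3 gave 1, 0 and 0 rises and 5, 3 and 3 falls. Leaving out KO replicates 1, 2 and 3 gave 1, 1 and 2 rises and 5, 10 and 6 falls. Of p53 targets, 5 of 23 rose, near the share of all genes, and 8 fell. Ddb2, a DNA repair factor, had 157, 112 and 137 counts in control against 429, 286 and 236 in sgRNA1 KO (log2 fold change 1.19, SE 0.27, adjusted p = 0.0181, 4 of 6 fits). Aen, an apoptosis-enhancing nuclease, had 5374, 6384 and 6146 in control and 1185, 1670 and 3509 in sgRNA1 KO (log2 fold change -1.64, SE 0.38, adjusted p = 0.0196, 2 of 6 fits). For p53 targets, 5, 1 and 1 rose and 2, 1 and 1 fell when control replicates 1, 2 and 3 were left out in turn. With KO replicates 1, 2 and 3 left out, 5, 5 and 6 rose and 5, 3 and 15 fell.

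Interferon response genes rose in 6 of 30 cases and fell in 7, both near the shares of all genes. Mx2, an antiviral GTPase, had counts of 56, 38 and 38 in control and 245, 267 and 205 in sgRNA1 KO (log2 fold change 2.43, SE 0.23, adjusted p = 0.00366). Rsad2, viperin, had 95, 78 and 82 counts in control against 294, 176 and 320 in sgRNA1 KO (log2 fold change 1.58, SE 0.27, adjusted p = 0.00964, 4 of 6 fits). The falls were led by Ifi202b, Slfn8 and Ifi203, given above. In interferon response and Ifi200, leaving out control replicates 1, 2 and 3 gave 2, 2 and 1 rises and 5, 2 and 2 falls. The fits without KO replicates 1, 2 and 3 gave 3, 4 and 10 rises and 5, 5 and 10 falls. Hypoxia genes rose in 5 of 21 cases, near the share of all genes, and fell in 3. Bnip3l, a mitophagy receptor, had 1840, 1791 and 1689 in control and 4201, 3934 and 2444 in sgRNA1 KO (log2 fold change 0.95, SE 0.21, adjusted p = 0.0179, 1 of 6 fits). The collagen prolyl hydroxylase subunit P4ha2 had counts of 27, 29 and 20 in control and 6, 4 and 4 in sgRNA1 KO (log2 fold change -2.22, SE 0.29, adjusted p = 0.00647). For hypoxia, 1, 0 and 0 rose and 1, 1 and 1 fell when control replicates 1, 2 and 3 were left out in turn. When KO replicates 1, 2 and 3 were left out, 2, 4 and 8 rose and 2, 3 and 8 fell.

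Of potassium channel genes, 5 of 29 rose, near the share of all genes, and 9 fell. Kcnn2, a calcium-activated channel, had 251, 146 and 185 counts in control against 8337, 5351 and 2211 in sgRNA1 KO (log2 fold change 4.60, SE 0.49, adjusted p = 0.00452), with every KO library far above the controls. The voltage-gated Kcna1 had 79, 74 and 73 in control and 1, 13 and 10 in sgRNA1 KO (log2 fold change -3.50, SE 0.73, adjusted p = 0.0154, 3 of 6 fits). In potassium channels, leaving out control replicates 1, 2 and 3 gave 2, 1 and 1 rises and 3, 0 and 0 falls. Rises numbered 3, 2 and 11 and falls 4, 7 and 11 without KO replicates 1, 2 and 3. Of glutamate and GABA receptor genes, 9 of 27 rose and 3 fell. Gria4, an AMPA receptor subunit, had counts of 111, 140 and 141 in control and 1929, 828 and 1291 in sgRNA1 KO (log2 fold change 3.28, SE 0.31, adjusted p = 0.00378). Grm3, a metabotropic receptor of glia, had 365, 260 and 234 counts in control against 1224, 2192 and 658 in sgRNA1 KO (log2 fold change 2.10, SE 0.44, adjusted p = 0.0153, 4 of 6 fits). Grin2a, an NMDA receptor subunit, fell, with 527, 627 and 631 in control and 88, 39 and 281 in sgRNA1 KO (log2 fold change -2.57, SE 0.67, adjusted p = 0.0261, 2 of 6 fits). For glutamate and GABA receptors, 6, 2 and 2 rose and 0, 0 and 0 fell when control replicates 1, 2 and 3 were left out in turn. Without KO replicates 1, 2 and 3, 8, 7 and 14 rose and 2, 3 and 6 fell.

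Synapse adhesion and axon guidance genes rose in 10 of 40 cases and fell in 7, both near the shares of all genes. Nrxn3, a presynaptic organiser, had counts of 242, 195 and 155 in control and 1558, 1168 and 512 in sgRNA1 KO (log2 fold change 2.33, SE 0.42, adjusted p = 0.0114, 4 of 6 fits). The guidance receptor Robo1 had 105, 117 and 120 counts in control against 1041, 2608 and 221 in sgRNA1 KO (log2 fold change 2.88, SE 0.83, adjusted p = 0.0351, 1 of 6 fits). Its replicate 2 was far above the others. Sema3c, a secreted guidance cue, had 153, 179 and 155 in control and 48, 62 and 17 in sgRNA1 KO (log2 fold change -2.09, SE 0.47, adjusted p = 0.0184, 3 of 6 fits). The netrin receptor Unc5b had counts of 522, 644 and 635 in control and 170, 167 and 305 in sgRNA1 KO (log2 fold change -1.54, SE 0.27, adjusted p = 0.0102, 4 of 6 fits). In adhesion and guidance, leaving out control replicates 1, 2 and 3 gave 4, 0 and 0 rises and 3, 0 and 1 falls. Leaving out KO replicates 1, 2 and 3 gave 5, 3 and 22 rises and 4, 7 and 10 falls.

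The genes within 200 kb of Gpd1 were examined because they flank the cut. Of the 9 neighbours that were tested, 4 fell and 0 rose, where 22.8% and 19.8% of all genes did. Racgap1, a cytokinesis gene, had 13889, 14610 and 14966 counts in control against 3865, 2848 and 11037 in sgRNA1 KO (log2 fold change -1.55, SE 0.48, adjusted p = 0.0412, 1 of 6 fits). The ceramide synthase Cers5 had 4272, 4684 and 4476 in control and 2518, 2656 and 3599 in sgRNA1 KO (log2 fold change -0.63, SE 0.15, adjusted p = 0.0212, 1 of 6 fits). Faim2, an inhibitor of Fas signals, had counts of 43, 27 and 35 in control and 3, 9 and 7 in sgRNA1 KO (log2 fold change -2.37, SE 0.41, adjusted p = 0.0104, 4 of 6 fits). The water channel Aqp5 had 17, 12 and 15 counts in control against 9, 5 and 5 in sgRNA1 KO (log2 fold change -1.13, SE 0.33, adjusted p = 0.035, 2 of 6 fits). Lima1, an actin-binding protein, did not pass, with 5996, 6278 and 6471 in control and 9864, 9851 and 6769 in sgRNA1 KO (log2 fold change 0.48, SE 0.16, adjusted p = 0.0547). Smarcd1, Cox14, Asic1 and Gm17349 did not pass. The opposite-strand gene Gm16537, whose exons overlap Gpd1, stood at 2 to 11 counts and was not tested.

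Cells edited with sgRNA1 were also set against those edited with sgRNA2, which shares the target but not the site. Of 15827 genes tested in a fit of all 9 libraries, 0 passed limma (0%), the smallest adjusted p was 0.762, and 474 had an unadjusted p under 0.05. This does not show that the guides act alike, since the spread within each guide was wide. Without sgRNA1 KO replicate 3, 173 genes passed, 90 higher and 83 lower with sgRNA1, and 1 passed without sgRNA1 KO replicate 1 or sgRNA2 KO replicate 1. The genes with the smallest unadjusted p are given as values. Tfpi, an inhibitor of coagulation, was at 43, 44 and 34 with sgRNA1 and 176, 646 and 665 with sgRNA2, against 49, 37 and 46 in control. Gng2 was at 79, 106 and 17 with sgRNA1 and 521, 1158 and 2497 with sgRNA2, whose libraries lay on both sides of the control level of 1300 to 1546. Ociad2 was low with both, at 122, 31 and 73 and at 21, 10 and 14, against 1110, 1340 and 1368. Prss35, Col16a1 and Mobp were the others, with log2 differences (sgRNA1 minus sgRNA2) of 1.75 (SE 0.30), 0.87 (SE 0.19) and -1.99 (SE 0.30). None of these 6 passed, with adjusted p-values of 0.762 or 0.778.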

How the data were processed

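Poly(A) RNA of 9 libraries was measured, and the 6 of the control and sgRNA1 KO groups were compared. The deposited values are scores, that is normalized read counts, which the authors obtained by scaling each library with a single factor and rounding. This was read from the values. The submitters' processing notes name build mm10 and the tools STAR (2.4.1d), DESeq2 and featureCounts. Use of strand and the annotation release are not given in the sources used here. Of 21899 genes, 21823 (99.7%) matched GENCODE M21, which gave positions and exon overlaps. Exon overlap with an opposite-strand gene was not limited to Fn1 and Sepp1. It also held, among others, for Timp3 (Syn3), Itga7 (Mettl7b), Acaa1a (Myd88), Pfkp (Pitrm1), Pfkm (Senp1) and Agpat1 (Egfl8). Spp1 and Agpat9 overlap Gm42793 and Gm42987 on their own strand. Reads of such genes may be shared. Since the values are not raw counts, count-based tests were not run.

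Values were transformed as log2(value + 1), which understates changes of low genes. Genes whose mean over the 6 libraries reached 10 entered a two-sided limma-trend test (limma 3.58.1 in R 4.3.3), called at a Benjamini-Hochberg adjusted p under 0.05. The guides were compared in a fit with 3 groups and 9 libraries. Totals of 39974295 to 42975283 are sums of normalized counts and do not give the read depth. Ratios to sums of 1 to 3 counts have 95% Clopper-Pearson intervals. These were taken on normalized counts and so are approximate. Where a group is at 0, a floor of 3 counts per library was set. The steps were tested on simulated data drawn with equal spread in all groups. The unequal spread of the real groups was not simulated.

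Genes were named by rule: the glycerol-3-phosphate dehydrogenases, the 15 largest rises and falls and the 8 of each with the smallest p, up to 3 members of each list in each direction, near matches of the guide, the genes within 200 kb of Gpd1, and the smallest p between the guides. The largest changes needed groups without overlap, the higher one averaging 50 or more, and the smallest p at least a 2-fold change. Some genes chosen by the rule are not reported here. Markers named beyond this were chosen after their values were seen. The members, the gene lists and this rule were chosen with earlier results of these data known. Alternatives were pseudocounts of 0.5 and 5, no filter, a mean of at least 50, quantile and median-of-ratios scaling, a variance weight per group, all 9 libraries, a replicate block and each library left out. Figures used Python 3.11.15 and matplotlib 3.10.9.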

Additional observations from a re-analysis of the deposited data

How the results depend on the processing

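Across pseudocounts, filters, scalings, variance weights and the fit of all 9 libraries, the count of genes that passed stayed between 5699 and 6781. With 1 library left out it ran from 810 to 10818, the count of list members from 87 to 657, and the count between the guides from 0 to 173. Gpd1 passed with a variance weight per group (-2.50, adjusted p = 0.0179), with all 9 libraries in 1 fit (-2.50, adjusted p = 0.0391) and without sgRNA1 KO replicate 3, and its log2 fold change ran from -3.61 to -1.62 with 1 library left out.

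Of the 197 genes chosen by the naming rule that passed, none reversed under any alternative. The number that missed the threshold was 80, 123 and 122 without control replicates 1, 2 and 3, 54, 56 and 0 without KO replicates 1, 2 and 3, and at most 20 under the other settings. The cause was not tested. With a mean of at least 50, 176 of the 197 were tested and all of them passed.

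With the replicate number as a block, 5449 genes passed, 388 list members passed, Gpd1 had an adjusted p of 0.0612 and no gene passed between the guides. Same-numbered control and KO libraries deviated from their group means with correlations of 0.267, -0.109 and 0.08, so the numbers were not taken to pair the libraries. For counting error alone, the interval for the ratio of summed Rnase1 counts ran from 74.5 to 2240.0. It leaves out the spread between the KO libraries.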

Other observations

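By chromosome, the median log2 ratio to the control mean over the genes tested lay between -0.13 and 0.12 on each of chromosomes 1 to 19 and X in all 3 sgRNA1 KO libraries. For the 19 tested genes of the mitochondrial genome it was 0.66, 0.24 and 0.12 in replicates 1, 2 and 3. In the controls it was 0.01, 0.16 and -0.15. Of the 19, 3 rose (15.8%), under the 19.8% of all genes tested, and 0 fell.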
